A study of Saccharomyces cerevisiae with 3 samples.

Results

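The comparison is between 2 of the 3 sequencing libraries of the series: RNA 3′ ends mapped along a PGK1 reporter that carried 12 CGA codons, (CGA)12, and along the same kind of reporter with 12 AAA codons, (AAA)12. Both libraries came from whole cells of Saccharomyces cerevisiae strain BY4741 with SKI2 deleted (ski2delta), without treatment, grown to an optical density of about 0.8 in uracil-free defined medium that contained 2% raffinose and 2% galactose. The other library, from the same strain with a stem loop as the stalling sequence, is used only to show which of the 2 codon libraries stands apart at a given place. A read gives the place of 1 RNA 3′ end past a primer at position 585 of PGK1, the gene of the glycolytic enzyme phosphoglycerate kinase (locus tag YCR012W). There was 1 library per reporter, so no difference below could be set against a spread between replicates, and none was tested.

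A ribosome that cannot move on is struck by the ribosomes behind it, and in yeast such collisions lead to an endonucleolytic cut in the mRNA, a process called no-go decay. The cut leaves a 5′ fragment whose new 3′ end is normally removed by the cytoplasmic exosome with the Ski complex. Ski2 is the RNA helicase of that complex, so strains without it keep such 5′ fragments. CGA is read in yeast by an arginine tRNA through an inosine-to-adenine wobble pair and is a strong staller in tandem. AAA encodes lysine, and a run of it places both a chain of positive charges in the ribosome's exit tunnel and a run of adenosines in its decoding site.

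The CGA library held 7282449 ends and the AAA library 4154995. The members compared were the 352 positions from 606, where the ends begin, to 957. Position 958 is called the boundary here. It is the first position of a sum that the authors deposited beside the CGA table, and it was assumed for the AAA reporter. That region held 99.755% of the CGA ends and 99.870% of the AAA ends, and every position in it was listed in both libraries. The lowest count was 237 CGA ends and 150 AAA ends, and the median position held 11471 and 7663 ends. A share below is the ends at a position divided by all ends of the library. Intervals are 95% intervals (Wilson for a share, the normal approximation for a log2 ratio or a difference of shares) that cover counting error only, since copies of 1 molecule made by PCR count separately. Shares of 1 library sum to a fixed total, so a deficit at one place raises the shares elsewhere. Positions count from the ATG, as in the deposited tables, and codons and frames assume that position 1 is its A. No reporter sequence was analysed here, so this was not checked, and no base or amino acid is given for any position.

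The CGA ends lay further upstream than the AAA ends, with the median CGA end at position 824 and the median AAA end at 857. By position 889, 84.4% of the CGA ends had accumulated but only 67.1% of the AAA ends, a gap of 17.3 percentage points that was the widest in the region. The gap closed over the 68 positions that followed. From 890 to 957 the CGA library held 15.3% of its ends and the AAA library 32.8%, and the CGA share was the lower one at every position. Upstream of 890 the difference changed sign several times, and summed over 848 to 856 the CGA share was the higher one by more than 3-fold.

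**Figure D1:**
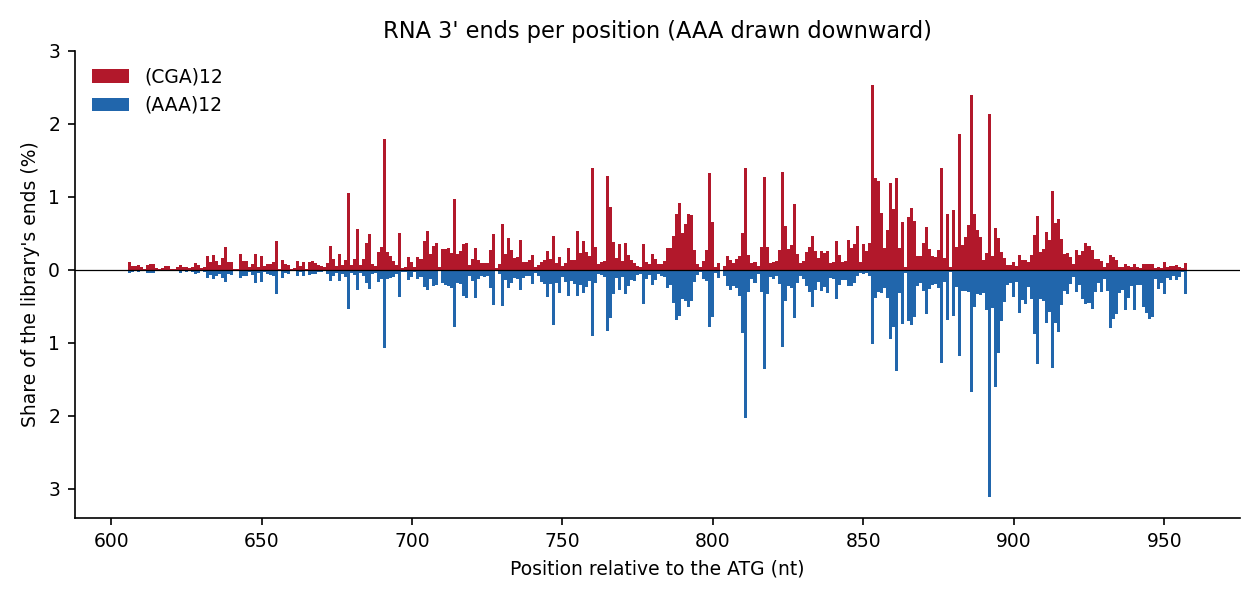
Share of each library's ends (percent, vertical axis) at each position relative to the ATG (nt, horizontal axis), with the (CGA)12 library upward and the (AAA)12 library downward. Many peaks face each other, the tallest CGA peak at 853 (2.53%) faces a shorter AAA peak (1.01%), and the CGA bars nearly vanish after 928 where AAA bars remain.

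At single-nucleotide scale most differences were smaller than 2-fold, and the larger ones lay in a few places. CGA over AAA on the log2 scale had a median of 0.16 over the 352 positions, with the lower and upper quartile at -0.33 and 0.54 and the extremes at -3.23 and 2.88. The CGA share was higher at 206 positions and lower at 146. At 19 positions (5.40% of 352) the CGA share was at least 2-fold higher, and at 46 (13.1%) at least 2-fold lower. The counting interval of the log2 ratio included 0 at 20 positions, and its widest half-width was 0.26.

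Positions past that 2-fold limit were not scattered. Of the 19 higher ones, 13 lay in 2 runs of at least 3 neighbours, from 606 to 609 and from 848 to 856, and of the 46 lower ones, 37 lay in 2 runs, from 893 to 905 and from 929 to 952. The runs were delimited after the values were seen. The first run lay at the very start of the mapped region and held few ends, 0.263% of the CGA ends and 0.122% of the AAA ends. There the stem-loop library held 0.228% of its ends in the region. The log2 ratio to the stem loop was 0.21 for CGA and -0.90 for AAA, so AAA was the library that stood apart. The other runs are described in turn.

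The 9 positions from 848 to 856, which lie 110 to 102 nt upstream of the boundary, were where the CGA library exceeded the AAA library most. They held 545329 CGA ends, or 7.49% (7.47 to 7.51), and 98014 AAA ends, or 2.36% (2.34 to 2.37). The ratio was 3.17-fold, 1.67 on the log2 scale (1.66 to 1.68). It differed within the run. Position 848 held 43867 CGA ends (0.602%) and 3407 AAA ends (0.0820%), a log2 ratio of 2.88 (2.83 to 2.93) and the highest of the region. The position before it, 847, held 0.357% and 0.187%. Positions 850, 851 and 852 had log2 ratios of 2.51, 2.38 and 2.05, but none of them reached 0.4% of the CGA ends. The bulk of the difference lay in the following codon. Position 853 held 184592 CGA ends (2.53%) and 42009 AAA ends (1.01%), position 854 held 1.26% and 0.388%, and position 855 held 1.21% and 0.310%. These 3 positions were the 3 largest rises in share of the region. The excess ended within a few nucleotides, with log2 ratios of 1.28 at 856 and 0.28 at 857.

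The stem-loop library did not show the 848 to 856 excess. Its shares are given here as shares of its 4140631 ends in the region, because 14.98% of all its ends lay from 958 on. It held 2.16% of them at 848 to 856, so the log2 ratio to the stem loop was 1.79 for CGA and 0.13 for AAA. Position 853 was a peak in all 3 libraries (0.993% for the stem loop). In the CGA profile the neighbours on both sides were raised with it, whereas positions 849 to 852 held under 0.1% each in both other libraries.

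The run from 893 to 905, which lies 65 to 53 nt upstream of the boundary, was low in the CGA library. It held 178638 CGA ends, or 2.45% (2.44 to 2.46), and 294333 AAA ends, or 7.08% (7.06 to 7.11). AAA exceeded CGA 2.89-fold, and the log2 ratio of CGA over AAA was -1.53 (-1.54 to -1.52), within a range from -1.85 to -1.25 over its 13 positions. Positions 894 and 895 showed the largest losses of share among these. Position 894 held 41247 CGA ends (0.566%, rank 45) and 66609 AAA ends (1.60%, rank 4). Position 895 held 0.441% of the CGA ends (rank 63) and 1.15% of the AAA ends (rank 11). The stem-loop library held 8.72% of its region's ends in this run, closer to the AAA library than to the CGA library.

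The edge of that low stretch was sharp. Position 889 held 0.445% of the CGA ends and 0.345% of the AAA ends, and position 890 held 0.133% and 0.323%, so that the log2 ratio went from 0.37 to -1.28 between neighbours. Over the 5 nt before 890 and the 5 nt from it on, the CGA share fell from 4.75% to 3.25%, while the AAA share rose from 3.18% to 6.11% and the stem-loop share from 2.92% to 6.69%. Position 892 stood out within it. It was the most frequent position of the AAA library with 129472 ends (3.12%) and still the third most frequent of the CGA library with 155350 ends (2.13%), a log2 ratio of only -0.55 between neighbours at -1.24 and -1.48.

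The run from 929 to 952, next to the boundary, carried the largest relative deficit. It held 125747 CGA ends, or 1.73% (1.72 to 1.74), and 378838 AAA ends, or 9.12% (9.09 to 9.15), so AAA exceeded CGA 5.28-fold and the log2 ratio was -2.40 (-2.41 to -2.39). The 15 positions from 935 to 949 all lay below -2.6. Position 945 had the lowest ratio of the region at -3.23 (-3.28 to -3.19), with 5253 CGA ends (0.0721%) and 28199 AAA ends (0.679%). Its neighbours 944 and 946 held 5373 and 6004 CGA ends against 24725 and 26679 AAA ends. No position of this run held more than 0.204% of the CGA ends, while the AAA library reached 0.792% at position 932.

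Both codon libraries departed from the stem-loop library in this run, in opposite directions. The stem-loop library held 5.96% of its region's ends there, so the log2 ratio to the stem loop was 0.61 for AAA and -1.79 for CGA. The order changed in the last 8 nt. Over the 5 nt from 950 on, the AAA library held 0.828% of its ends and the stem-loop library 2.41%, after 1.88% and 0.880% over the 5 nt before. The CGA library held 0.308% after 0.230%. At position 957 the CGA, AAA and stem-loop libraries held 0.0979%, 0.333% and 1.35%. Over the whole region, 18 positions (5.11%) were at least 2-fold higher and 52 (14.8%) at least 2-fold lower in CGA than in the stem loop. For AAA against the stem-loop library these numbers were 13 (3.69%) and 16 (4.55%). The comparisons share libraries and are not independent of each other.

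**Figure D2:**
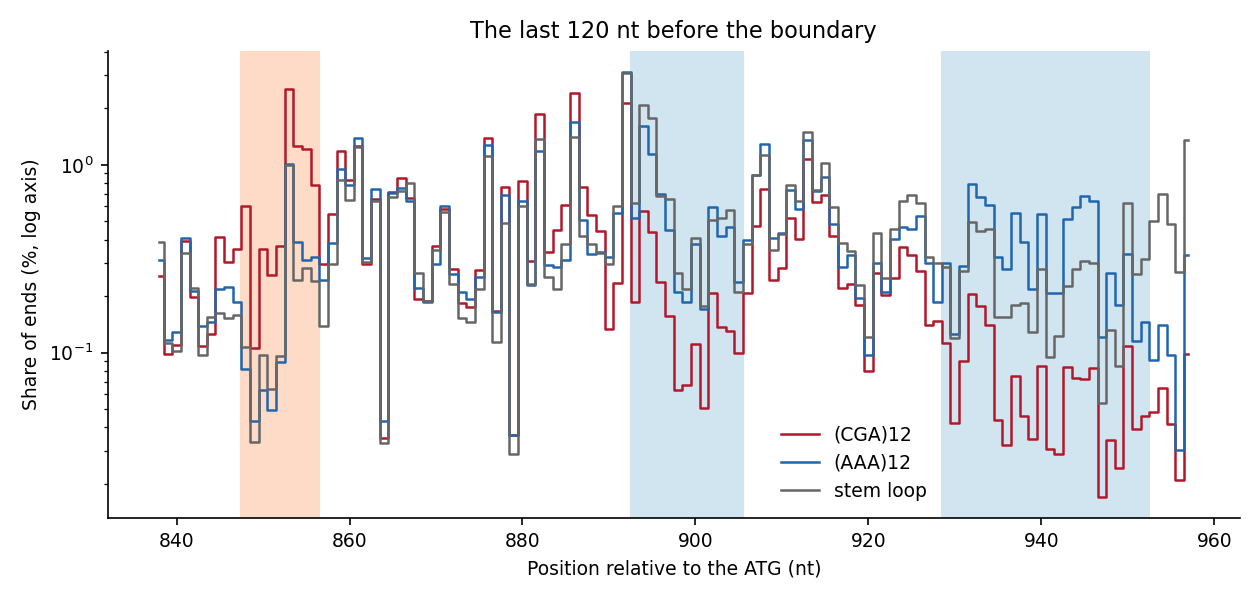
Share of ends (percent, logarithmic vertical axis) at positions 838 to 957 relative to the ATG (nt) in the (CGA)12, (AAA)12 and stem-loop libraries, the latter as a share of its ends in the region. The shaded run at 848 to 856 has the CGA line on top, and the shaded runs at 893 to 905 and 929 to 952 have it at the bottom, with AAA above the stem loop in most of the latter.

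Several of the positions with the largest gains or losses of share lay outside these runs. Of all the 10 largest rises in share, 6 were among the 10 most frequent positions of the CGA library, and of all 10 largest falls, 4 were among the 10 most frequent of the AAA library. Both lists rank the difference of shares, which can be large only where a share is large, so such overlap is partly built in. Position 691 held 1.80% of the CGA ends and 1.07% of the AAA ends, a log2 ratio of 0.75. Position 886 held 2.40% and 1.68%, and position 882 held 1.85% and 1.18%, both just upstream of the sharp edge at 890. Further upstream, position 799 held 1.33% and 0.791%, position 760 held 1.39% and 0.904%, and position 679 held 1.06% and 0.540%. None of these 6 reached 2-fold. Position 811 went the other way, with 1.39% of the CGA ends and 2.02% of the AAA ends (log2 ratio -0.54), although it ranked 7 and 2 in the libraries. Position 908, with 0.741% and 1.28%, was the only one of the 10 largest falls between the runs at 893 to 905 and 929 to 952.

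At codon scale the same places stood out with fewer calls. Of the 117 whole codons of the region, 5 (4.27%) had at least 2-fold more CGA ends and 14 (12.0%) at least 2-fold fewer. The higher ones were codons 203 and 206 at the start of the region and the adjacent codons 283, 284 and 285. Codon 285 (853 to 855) was the fullest codon of the CGA library with 5.01% of its ends (4.99 to 5.02), and held 1.71% of the AAA ends, rank 17. Codon 284 had the highest ratio, 2.29 on the log2 scale, from 0.987% and 0.202%. The lower ones were codons 299 to 302 and the last 10 codons before the boundary, 310 to 319. Codon 298 (892 to 894) was the fullest codon of the AAA library with 5.24% (5.22 to 5.26) and held 2.89% of the CGA ends, rank 5, which made it the largest loss of share by a codon. Codon 315 (943 to 945) had the lowest ratio, -2.96, from 0.230% and 1.79%.

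Summing over codons removed almost none of the difference between the profiles. Turning one profile of the region into the other would take a shift of 21.6% of ends (21.57 to 21.69) over single nucleotides, 21.1% (21.05 to 21.17) over codons and 15.2% (15.18 to 15.30) over 30-nt windows. The codon value was thus 97.6% of the single-nucleotide value, and the window value 70.4% of it. The nucleotide with the most ends within a codon was the same in both libraries in 100 of the 117 codons. It was the first nucleotide in 51 CGA-library codons and 47 AAA-library codons.

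The split of ends over the reading frames differed little. Frame 1 positions of the region held 42.0% of the CGA ends and 40.7% of the AAA ends, a difference of 1.36 percentage points, frame 2 held 27.4% and 28.4%, and frame 3 held 30.3% and 30.8%. The frame with the most ends was the same in both libraries in 11 of the 12 windows described next. The frame 1 share of a window was higher in CGA in 9 of the 12, with differences from -1.60 percentage points in the window 808 to 837 to 4.28 in the window 658 to 687. Median log2 ratios of 0.18, 0.14 and 0.17 over frame 1, 2 and 3 positions were close to each other.

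A ribosome covers about 30 nt of mRNA, so the region was also cut into windows of 30 nt counted back from the boundary, the twelfth and most upstream being 22 nt long. Only 1 of the 12 windows (8.33%) passed the 2-fold limit, the one next to the boundary, and 0 (0.00%) passed it upward. The window 928 to 957 held 2.15% of the CGA ends and 9.99% of the AAA ends, the lowest ratio also among all windows of 30 nt placed at every nucleotide. The next window upstream, 898 to 927, held 9.10% and 14.4%, with all of its 30 positions lower in CGA. The next, 868 to 897, held nearly equal shares, 17.2% and 18.6%, but was split inside, with 18 positions higher and 12 lower in CGA. The window 838 to 867 held 17.2% and 11.4%, a log2 ratio of 0.59. Among windows placed at every nucleotide the highest ratio was 0.82, at 661 to 690, with 5.40% and 3.06%. From 606 to 717, the 4 most upstream windows each had more CGA than AAA ends, with log2 ratios of 0.84, 0.48, 0.80 and 0.53 in the order of position. In the same order, the log2 ratios to the stem loop were -0.0045, 0.022, 0.49 and 0.32 for CGA. For AAA they were -0.84, -0.46, -0.31 and -0.21.

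**Figure D3:**
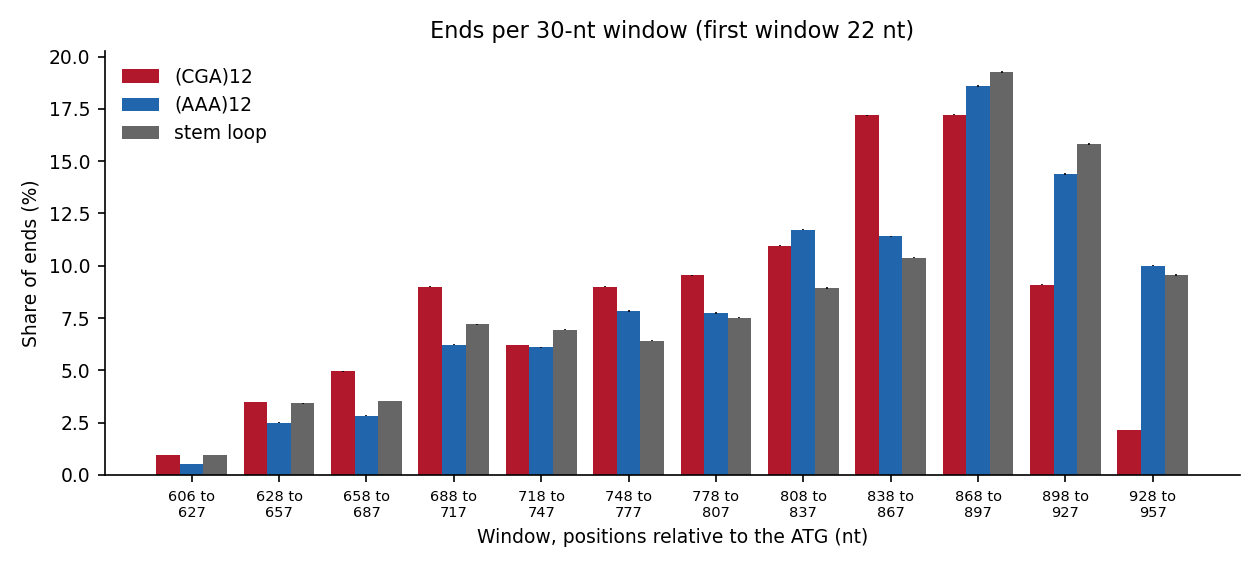
Share of ends (percent, vertical axis) in windows of 30 nt counted back from the boundary (horizontal axis, positions relative to the ATG in nt, the most upstream window holding 22 nt) in the (CGA)12, (AAA)12 and stem-loop libraries, with 95% Wilson intervals that are mostly thinner than the line. The CGA bar is the shortest of its group in the 3 windows from 868 to 957, and stands above the AAA bar in the window 838 to 867 (17.2% against 11.4%).

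Windows also differed in how far the ends were rearranged inside them. With each window scaled to its own total, 23.8% of ends would have to move within the window 838 to 867, 21.7% within 928 to 957 and 21.6% within 868 to 897. These are the windows that hold the runs from 848 and from 929 and the edge at 890. In each of the other windows the value lay between 7.54% and 13.4%. It was 7.54% to 8.59% in the 4 windows upstream of 718, where the correlation of the log2 shares was 0.96 to 0.98 across the positions of a window (n = 22 or 30 neighbouring positions of the same 2 libraries). The fullest position was the same in both libraries in 9 of the 12 windows. The exceptions were 868 to 897 (886 in CGA, 892 in AAA), 838 to 867 (853 and 861) and 718 to 747 (730 and 747). The spread over positions was alike: the entropy of the profile corresponded to 205 equally used positions for CGA and 216 for AAA, out of 352.

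In part of the region the ratio of the 2 libraries rose and fell with a spacing close to the footprint of a ribosome. Stretches of at least 5 neighbouring positions with a lower CGA share began at 717, 741, 772, 801, 833 and 890, and the distances between the starts were 24, 31, 29, 32 and 57 nt. The stretches at 741 to 754 and 801 to 815 were the deepest upstream of 890. The former held 2.21% of the CGA ends and 3.31% of the AAA ends, a log2 ratio of -0.59, and the latter 3.27% and 5.14%, a log2 ratio of -0.65. Between them lay stretches with a higher CGA share, among them 755 to 771 (7.11% and 5.24%) and 784 to 796 (5.88% and 4.37%). The stretches and the extremes described next were sought after the ratio had been seen.

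Where a stretch begins depends on how the shares are scaled, but the location of a trough does not. With the log2 ratio averaged over 11 nt, and troughs and crests taken as the extremes within 10 nt on either side, troughs lay at 722, 746, 776, 808, 839, 866, 899 and 941. The distance from 722 to 746 was 24 nt, and from 746 to 899 the distances were 30, 32, 31, 27 and 33 nt. Crests lay at 734, 764, 794, 826, 851, 884 and 917, at distances of 30, 30, 32, 25, 33 and 33 nt. Upstream of 722 the extremes were shallower and closer, with trough distances of 19 to 24 nt. The last trough, at 941, lay 42 nt past the one before. Over all 12 troughs the median distance was 27 nt (19 to 42), and over all 11 crests 30 nt (17 to 33). The search allows no 2 extremes of a kind within 10 nt of each other, on a ratio already averaged over 11 nt. It thus sets part of these distances. Those it would give on values without any spacing were not computed.

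**Figure D4:**
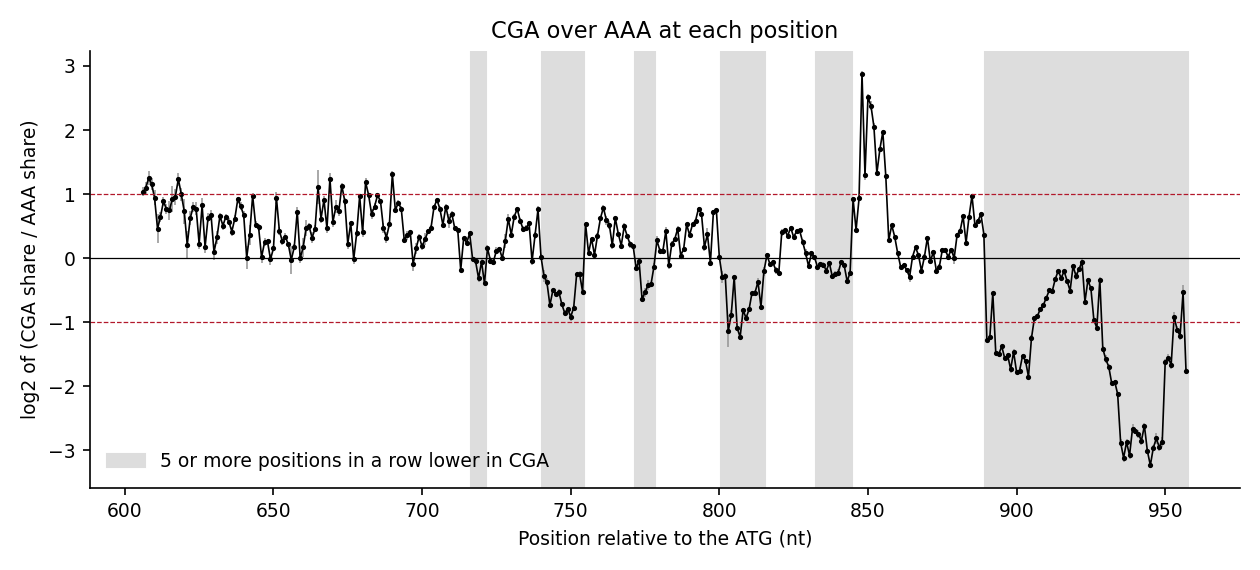
Log2 of the CGA share over the AAA share (vertical axis) at each position relative to the ATG (nt, horizontal axis), with vertical lines for the 95% counting interval, grey bands for stretches of at least 5 neighbouring positions lower in CGA, and dashed lines at a 2-fold difference. The bands begin at 717, 741, 772, 801, 833 and 890, at distances of 24, 31, 29, 32 and 57 nt. The peak at 848 to 856 lies before the last band, the long low stretch from 890 on.

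The troughs and crests were not all made by the same library. At the trough at 746 the log2 ratio averaged over 11 nt was -0.53 for CGA over stem loop and 0.11 for AAA over stem loop, and at 808 these values were -0.49 and 0.29. At 899 they were -1.85 and -0.24, and at 941 they were -1.83 and 1.06. The shallow trough at 776 had 0.19 and 0.34. At the crests at 764, 826 and 851, CGA over stem loop was 0.61, 0.55 and 1.79, and AAA over stem loop 0.15, 0.27 and 0.08. CGA lay further from the stem loop than AAA did at 6 of the 8 troughs from 722 on, 776 and 866 being the others, and at all 7 crests past 722. The margin was narrow at the troughs at 722 (-0.52 for CGA and -0.47 for AAA) and 839 (-0.092 and 0.088). At the crest at 917 CGA was further because it lay lower, at -0.52 against -0.24 for AAA. Upstream of 722 the reverse held at 3 of 4 troughs and 3 of 4 crests. All these counts depend on how the shares are scaled. From 890 to 957 the CGA library held 15.3% of its ends, the AAA library 32.8% and the stem-loop library 35.2%. Leaving that stretch out would lower CGA over stem loop upstream of it more than AAA over stem loop. The counts were not computed again without it.

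The autocorrelation of the log2 ratio also rose near this spacing. It was 0.92 between neighbouring positions, fell to 0.30 at 18 nt, rose to 0.50 at 33 nt, and after a low of 0.14 at 48 nt rose again to 0.23 at 57 nt (n = 352 positions of 1 pair of libraries, which are not independent). Within the 242 positions upstream of 848, which leave out the tall run and everything past it, it fell to -0.03 at 15 nt and rose to 0.45 at 29 nt and 0.43 at 60 nt. The log2 shares of each library alone had no such rise of this size: in the CGA library the autocorrelation was 0.13 at 16 nt and at most 0.24 from 20 to 45 nt, and in the AAA library 0.36 and 0.44. Against the stem loop, the highest value from 20 to 45 nt was at 30 nt for CGA (0.44) and also at 30 nt for AAA (0.34).

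**Figure D5:**
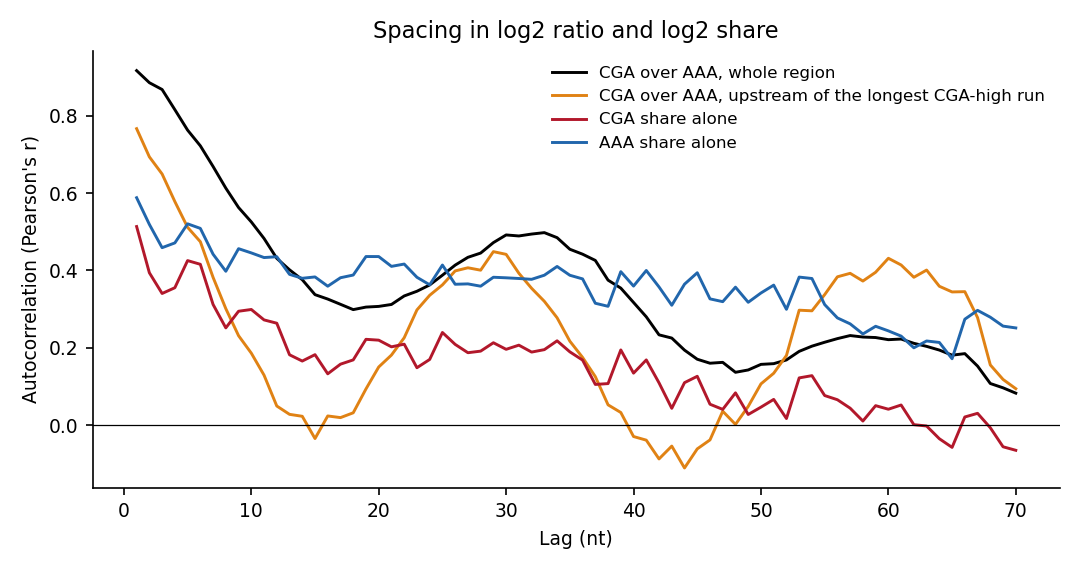
Autocorrelation (Pearson's r across positions, vertical axis) against lag (nt, horizontal axis) for the log2 ratio of CGA over AAA in the whole region and upstream of 848, and for the log2 shares of the CGA and AAA libraries alone. The ratio dips near 15 to 18 nt and rises at 33 nt (0.50, whole region) or 29 nt (0.45, upstream of 848) and again near 60 nt. The single libraries decline from 0.51 (CGA) and 0.59 (AAA) at 1 nt, without a rise as large as that at 29 or 33 nt.

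The largest changes of level in the ratio, taken as the mean of 5 nt from a position on minus the mean of the 5 nt before it, fell near the edges of several of these runs and stretches. Since runs, stretches and steps all come from the same ratio, that is no separate observation. Steps of at least 0.75 were taken from the largest down, leaving out any within 10 nt of one already taken, which gave 9. Upward steps were at 755 (0.81), 848 (1.88), 906 (0.80) and 950 (1.59). Downward steps were at 741 (-0.82), 803 (-1.11), 859 (-1.15), 890 (-1.83) and 933 (-1.19). At 803 all 3 libraries dropped, the CGA share from 2.37% to 0.455%, the AAA share from 1.75% to 0.812% and the stem-loop share from 1.64% to 0.784%, so the step is a steeper drop in the CGA library. At 848 the CGA share rose from 1.31% to 1.70% while the AAA share fell from 0.915% to 0.327%.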

How the data were processed

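Per the labels' protocols, an adenylated DNA adaptor was joined to RNA extracted with hot phenol, and cDNA was amplified with 1 primer on the adaptor and 1 at PGK1 position 585. The submitters' processing notes name cutadapt 1.12, Novoalign, SAMtools 1.13 and bedtools. The sources used here give neither their settings nor the reference, and do not mention molecular identifiers. The authors deposited raw read counts by position, 1 table a library, per the file headers. The authors also deposited, beside position 958 of the CGA table, the count 17819, which equals the reads from there on. PCR copies and sequence preferences of ligation or amplification can shape such counts. No source used here says if a position marks the final nucleotide of an RNA or the one after it.

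The region runs from the first position with at least 0.01% of a library's ends to the one before the boundary. Shares, log2 ratios, window sums and autocorrelations were computed with Python 3.11.15 (scipy 1.17.1, numpy 2.4.6, pandas 2.3.3; figures with matplotlib 3.10.9), and tested on simulated data. Named were the 10 positions and 5 codons with the largest rise and fall in share, the 5 positions with the largest log2 ratio each way among those with at least 0.05% of ends in 1 library, and all windows. The comparison, its members and these rules were chosen with earlier results of these data known.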

Additional observations from a re-analysis of the deposited data

Results flagged for a closer look

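Some ends lay outside the region compared, and each total exceeded 3, the limit for a count of 0. From position 958 on, the CGA library held 17819 ends (0.245% of its total) and the AAA library 5356 (0.129%). In the first 30 nt from 958 on these were 9707 and 456 ends, with the fullest positions at 960 (2081 CGA ends) and 959 (251 AAA ends). Before position 606, 17 positions with 47 ends in all were listed for CGA, at most 14 ends each. For AAA 16 positions held 25 ends, at most 4 each. How the ends upstream of 606 arose was not tested.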

How the results depend on the processing

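Of 82 alternative values of the comparison as a whole, 41 stayed within the counting interval or 1.5 times the count reported and 41 moved outside it. None changed sign, but most could not, since counts, shares of ends to move and the lag are never negative. Only the log2 ratio of the window next to the boundary, the median difference and the frame 1 difference could change sign. The intervals are narrow at this depth, so small moves fall outside them. Of 262 values of named positions, codons and windows, 151 stayed, 106 moved and 5 changed sign. The number that stayed says little about stability, since several settings could hardly move a value. Requiring 10 ends gave 46 unchanged values, and the region's ends as denominator shifted 46 values by 0.0017 each. Adding 1 end gave a further 25. Leaving out the 30 nt before the boundary shifted all 37 values that remained by -0.12. No paired analysis was possible because each reporter had 1 library. For the same reason no replicate could be left out. The base at each end, with its alternatives, was not run, since no reporter sequence was analysed here. Requiring 10 ends left out no position, and adding 1 end moved no named log2 ratio by more than 0.01. Leaving out the run at 848 to 856 or the stretch 890 to 957, and the autocorrelation upstream of 848, were chosen after seeing the data. The single library per reporter limits every value.

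The share of ends to move, over single nucleotides, codons and windows in that order, became 21.36%, 19.86% and 14.64% without the most frequent position of each library, 18.32%, 17.49% and 11.97% without the 30 nt before the boundary, 20.40%, 19.97% and 13.35% without 848 to 856, and 14.17%, 13.25% and 7.48% without 890 to 957. Over codons it was 21.28% and 20.96% with the grid shifted by 1 and 2 nt. Over windows it was 16.74% at 25 nt, 17.14% at 35 nt and 16.47% with windows shifted by 15 nt. Without 890 to 957, 6 positions and 3 codons were at least 2-fold higher and 14 positions and 3 codons at least 2-fold lower in CGA. Without the 30 nt before the boundary the lower ones were 25 and 4. The window next to the boundary had a log2 ratio of -2.42 at 25 nt, -1.79 at 35 nt and -2.14 without 848 to 856, and has no value where its positions are left out. The median of CGA minus AAA was -33 nt, and became -32 nt within the region, -36 nt without the most frequent positions, -13 nt without the 30 nt before the boundary, -7 nt without 890 to 957 and -42 nt without 848 to 856. The frame 1 difference became 1.07, 1.115, 0.53 and 1.23 percentage points without the most frequent positions, the last 30 nt, 890 to 957 and 848 to 856, and 0.56 as a mean over codons. The lag of highest autocorrelation was 30 nt without the last 30 nt and without 890 to 957, 36 nt without 848 to 856, 34 nt after subtracting a running mean over 61 positions, and 29 nt upstream of 848. Shares upstream depend on what is left out downstream: the log2 ratio of the window from 718, 0.02 as reported, became -0.10 without the last 30 nt, and without 890 to 957 those of the windows from 718, 748 and 778 became -0.31, -0.13 and -0.030, and what remains of the window from 868 became 0.032. Apart from these constructions, causes were not tested.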
